A study of Mus musculus with 26 samples.

Results

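The Ebf transcription factors were described over 26 clonal mouse adipose cell lines, 3 from the interscapular and 23 from the inguinal fat depot. The family was taken as every probe set annotated to Ebf1, Ebf2, Ebf3 or Ebf4, which gave 4 of 18193 named genes and 12 of 34945 probe sets with 1 gene symbol. Per the labels, all lines had the 129SVE background from Taconic, were immortalized clones, had been differentiated and had received forskolin, an activator of adenylyl cyclase that raises cAMP, for 4 h. The forskolin dose stands as 10 mM in the sample protocols and as 10 µM in the series text, and this was left unresolved. The interscapular depot holds classical brown fat and the inguinal depot white and beige fat, and which inguinal clones are beige is not in the labels. Each line is 1 clone with 1 array, and the labels give no age, no untreated arrays and no repeated cultures, so p-values measure the spread among these clones only.

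Ebf (early B-cell factor) proteins are helix-loop-helix transcription factors that bind DNA as dimers through a zinc-coordinating domain of their own. Ebf1 was first known from B-lymphocyte development and from olfactory neurons, where it is also called Olf1, and Ebf1 and Ebf2 act in adipocyte formation. In brown fat, Ebf2 marks committed precursor cells and takes part with PPARγ in opening chromatin at brown-selective genes. Ebf3 and Ebf4 are close relatives that are best known from the nervous system and have been studied less in fat.

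The 4 genes differed in direction between the depots. Ebf2 and Ebf3 were higher in interscapular clones, by 3.41 ± 0.49 and 2.35 ± 0.51 log2 units (SE, n = 3 against 23), and Ebf1 was lower by 0.60 ± 0.17 (limma adjusted p = 3.41e-05 for Ebf2, 0.00326 for Ebf3 and 0.0193 for Ebf1). Ebf4 differed by -0.57 ± 0.23, which did not pass (limma adjusted p = 0.119) but did with scan session as a block (-0.69, adjusted p = 0.0496). Thus 2 of the 4 genes passed as higher and 1 as lower, while 4.55% of all 12741 genes tested passed as higher and 5.64% as lower, 10.2% in all. The choice of the family was made with earlier results of these arrays known, so its count is not independent evidence. Genes were tested if they exceeded the array median in at least 3 arrays. Ebf3 did so in 3 interscapular but only 2 inguinal clones. It thus entered the test through the group where it is high, and its place in the count is no support. Inguinal clones A3 and A5 stood apart from the other 21 inguinal clones in Ebf3, and A5 also in Ebf2, so results that rest on them are given with and without them. Levels are log2(intensity + 16) of the brightest probe set of a gene, and this scale understates the change of dim genes.

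**Figure D1:**
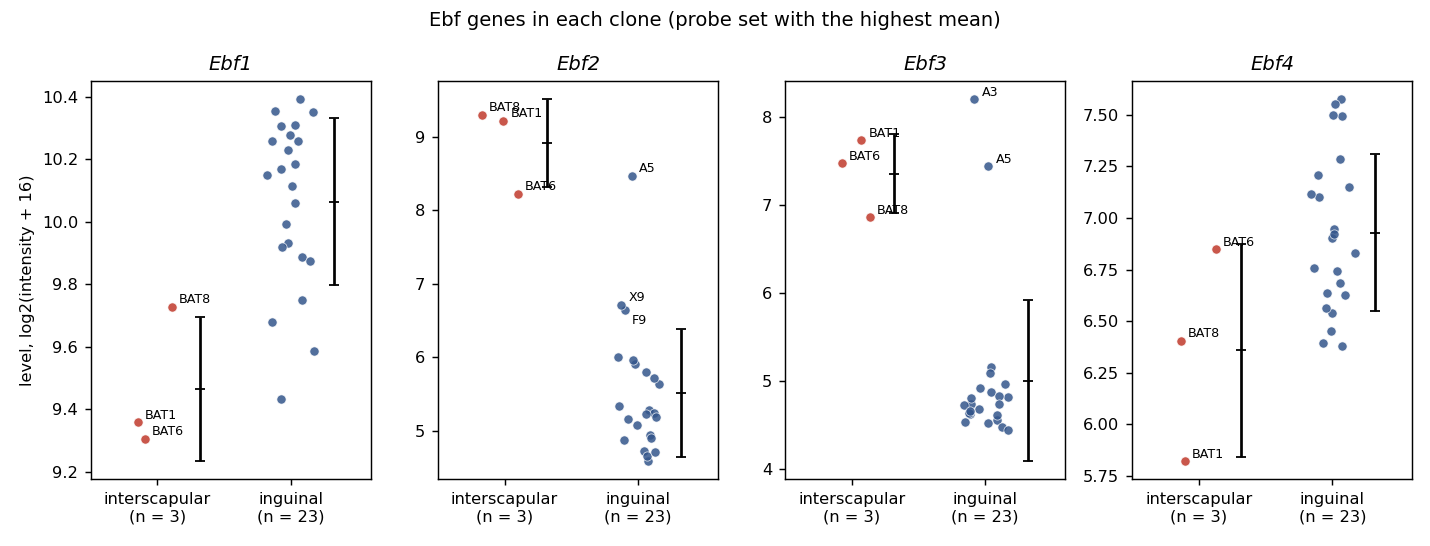
Level of each Ebf gene, log2(intensity + 16), in each clone, with interscapular clones (n = 3) left and inguinal clones (n = 23) right in every panel and bars at the mean ± SD. Interscapular clones lie high for Ebf2 and Ebf3, where only A5 or A3 and A5 of the inguinal clones reach them, and low for Ebf1.

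Sequences of the promoters are shown first, for the genes that differed between depots and had an entry in the RefSeq promoter table (GRCm38.p6), which holds 250 bases before to 50 bases after a gene's start. Ebf1 (2 starts), Ebf3 and Ebf4 were matched there, and Ebf2 was not. The Ebf binding motif was searched for by its core, CCCNNGGG, and by a longer form, the core with a T directly before it and an A directly after it. Both read the same on either strand, and the core lies inside the longer motif. Capitals mark a match to the core.

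Ebf3, chr7:137314396-137314695, minus strand: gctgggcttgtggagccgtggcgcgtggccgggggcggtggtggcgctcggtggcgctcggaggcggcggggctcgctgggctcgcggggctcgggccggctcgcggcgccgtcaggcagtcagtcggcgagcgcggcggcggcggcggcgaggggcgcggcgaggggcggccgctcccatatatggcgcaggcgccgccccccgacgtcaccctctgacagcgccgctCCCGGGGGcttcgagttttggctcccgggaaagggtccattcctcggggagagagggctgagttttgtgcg

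Ebf1, first start, chr11:44617850-44618149, plus strand: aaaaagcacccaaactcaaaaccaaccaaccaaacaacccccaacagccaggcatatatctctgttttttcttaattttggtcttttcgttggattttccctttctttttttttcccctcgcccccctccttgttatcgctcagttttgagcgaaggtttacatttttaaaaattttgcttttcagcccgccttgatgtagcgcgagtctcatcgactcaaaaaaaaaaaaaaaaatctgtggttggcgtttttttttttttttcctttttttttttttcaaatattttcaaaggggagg

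Ebf1, second start, chr11:44619978-44620277, plus strand: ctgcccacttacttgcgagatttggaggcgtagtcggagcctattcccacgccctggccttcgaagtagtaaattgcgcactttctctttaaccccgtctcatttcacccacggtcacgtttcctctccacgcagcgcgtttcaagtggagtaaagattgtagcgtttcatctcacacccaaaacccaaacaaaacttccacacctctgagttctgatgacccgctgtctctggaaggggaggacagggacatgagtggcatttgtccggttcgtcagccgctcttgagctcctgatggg

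The Ebf3 window held 1 match to the core, CCCGGGGG, which begins 21 bases before the start, and no match to the longer motif. Neither Ebf1 window held a match, and the Ebf4 window (chr2:130295689-130295988, plus strand) held none. The core was found in 13.671% and the longer motif in 0.904% of all 32851 promoter windows, so a core match is a common one. The Ebf3 window was 77.0% G or C and the Ebf1 windows 36.7% and 53.0%, beside a median of 52.7% over all windows. A match describes the letters of these windows and not a bound site.

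Ebf2, the brown precursor factor, had intensities of 581 in BAT1, 284 in BAT6 and 616 in BAT8, the interscapular clones. In inguinal clones it was lowest in A3 (7.95), had a median of 21.7 and was highest in A5 (339). A5 lay above BAT6 and below BAT1 and BAT8, and the remaining 22 inguinal clones lay below all 3. BAT6 was the lowest interscapular clone in each Ebf2 probe set. Its array had the largest gaps between 3' and 5' probes of all arrays, a sign of RNA quality (1.15 log2 units for actin and 4.51 for Gapdh). The part of RNA quality in its Ebf2 level was not tested. After A5 the highest inguinal clones were X9 (88.9), F9 (84.1), B5 (47.9), X3 (46.2) and I2 (43.9). Of the 23 inguinal clones, 6 exceeded the median of their array for Ebf2, as did all 3 interscapular clones. The arrays' medians lay between 40.3 and 45.7, so the inguinal level of Ebf2 is mostly near background signal and the size of the difference is approximate. With 1 array per clone, neighbours in this order cannot be told apart from measurement error.

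The Ebf2 level averaged 8.92 ± 0.60 in interscapular clones (log2, SD, n = 3) and 5.51 ± 0.87 in inguinal clones (SD, n = 23). The 95% interval of the difference ran between 2.41 and 4.41 log2 units, and Ebf2 had rank 20 of 12741 genes by the size of the difference. Enumerating all 2600 ways to draw 3 of the 26 clones, the exact permutation test gave p = 0.000769 (two-sided, the smallest possible being 0.000385). By batch, the difference was 3.59 and 3.23 in scan sessions 1 and 2, and 3.59 and 3.44 on scanners 1 and 2. Scanner 1 read 1 interscapular clone, BAT8, and there Ebf2 did not pass (limma adjusted p = 0.105). With fluidics station as a block the Ebf2 difference was 2.79 (limma adjusted p = 0.00265). Ebf2 passed without each clone in turn, and its difference was 3.50 without A3 and A5 (limma adjusted p = 7.18e-08).

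Probe sets that passed the filter on low values were also tested one by one, and 3 of the 4 tested for Ebf1 passed as lower and the 5 tested for Ebf2 and Ebf3 as higher, while 3.82% of all 22641 probe sets passed as higher and 4.23% as lower, 8.06% in all. For Ebf2 and Ebf3 this count is no support. Probe set 1449102_at of Ebf2 and the 3 Ebf3 probe sets needed the interscapular clones to pass the filter. Without the filter Ebf2 and Ebf3 passed over all named genes as well (limma adjusted p = 3.51e-05 and 0.00391). Both dimmer Ebf2 probe sets had the interscapular clones highest and A5 next. After A5, the highest inguinal clones were F9 and X9 in 1449102_at but G23 and I2 in 1449101_at. Probe set 1449102_at read 280.1, 119 and 280.5 in BAT1, BAT6 and BAT8, against 104 in A5 and at most 24.2 in the other inguinal clones. Here the depots did not overlap, and the difference was 3.23 log2 units (limma adjusted p = 4.08e-07). The depots did not overlap in 2.41% of all probe sets tested. The dimmest, 1449101_at, reached the array median in only 2 arrays and was not tested. It lay between 31.5 and 92.2 in interscapular clones and between 1.0 and 29.9 in inguinal clones, with A5 again the highest inguinal clone.

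**Figure D2:**
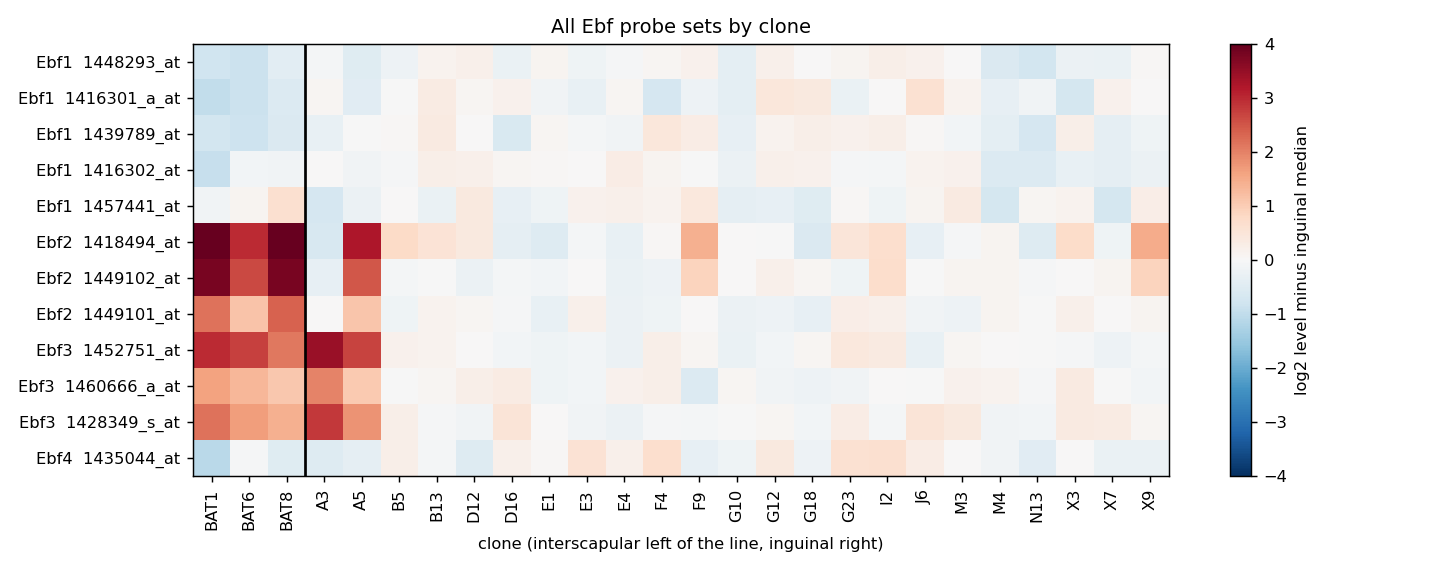
All 12 Ebf probe sets (rows) in each clone (columns), coloured by the log2 level minus the median of the inguinal clones, with interscapular clones left of the line and inguinal clones right of it. The 3 Ebf2 probe sets are high in the interscapular clones and A5, the 3 Ebf3 probe sets in the interscapular clones, A3 and A5, and 4 of the 5 Ebf1 probe sets are below the inguinal median in all 3 interscapular clones.

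Ebf3, whose human gene is linked to a neurodevelopmental disorder, had intensities of 197 in BAT1, 161 in BAT6 and 99.9 in BAT8. Inguinal clone A3 had 278 and A5 had 157, and the other 21 inguinal clones ranged between 5.65 and 19.8, with a median of 10.4. The 23 inguinal clones thus split into 2 clones at interscapular levels and 21 below the array median. A3 exceeded all 3 interscapular clones and A5 exceeded BAT8. The level averaged 7.35 ± 0.45 in interscapular clones (log2, SD, n = 3) and 5.0 ± 0.92 in inguinal clones (SD, n = 23), and 4.73 ± 0.19 in the 21 inguinal clones other than A3 and A5. The interval of the difference ran between 1.32 and 3.39 log2 units, and the exact permutation test gave p = 0.00308 (two-sided, 2600 splits).

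By batch, the Ebf3 difference was 2.37 and 2.91 in sessions 1 and 2, and 1.92 and 2.54 on scanners 1 and 2, and it did not pass on scanner 1 (limma adjusted p = 0.281). It was 2.62 without A3 and A5 (limma adjusted p = 1.40e-12), where leaving out these clones was chosen after seeing their values and also narrows the spread. The dimmer probe sets 1428349_s_at (1.49, adjusted p = 0.0167) and 1460666_a_at (1.20, adjusted p = 0.00815) passed as well by limma. Both had A3 and A5 as the highest inguinal clones. In 1460666_a_at A3 read 94.0 and A5 41.4, against 3.34 to 19.7 in the other inguinal clones, and in 1428349_s_at A3 read 127 and A5 53.5, against 1.0 to 12.8. With fluidics station as a block none of the 3 Ebf3 probe sets passed in the fit over probe sets (limma adjusted p = 0.0604 for 1452751_at, 0.125 for 1428349_s_at and 0.0673 for 1460666_a_at), while the gene passed narrowly in the fit over genes (0.0482). Both dimmer probe sets also missed the threshold without BAT1 and without BAT6.

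A3 and A5 shared Ebf3 but not Ebf2. In the brightest probe sets A5 exceeded only BAT6 of the interscapular clones in Ebf2 and only BAT8 in Ebf3. A3 had the highest Ebf3 of all 26 clones and an Ebf2 signal at background. Hoxc10, a homeobox gene of the posterior body, was at most 6.16 in interscapular clones, 661 in A3, 1274 in A5 and 734 to 1698 in the other inguinal clones, so both carried this inguinal mark. Hoxc8, of the same Hox cluster, was 61.6 to 211 in interscapular clones, 336 in A3, 217 in A5 and 958 to 2503 in the other inguinal clones. Tmem26, a surface protein used as a beige marker, was 17.01 to 27.8 in interscapular clones, 67.9 in A3, 92.4 in A5 and 119 to 712 in the other inguinal clones. For Hoxc8 and Tmem26, A3 and A5 were thus the lowest inguinal clones. Fgf21, a secreted metabolic hormone, was 834 to 2464 in interscapular clones, 32.6 in A3 and 115 in A5, which was the highest inguinal clone.

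Ebf1, the founding member, lay above the array median in all 26 clones. Its intensity was 640.3 in BAT1, 617 in BAT6 and 832 in BAT8, against a lowest of 675 (N13), a median of 1121 and a highest of 1328 (I2) in inguinal clones. Of the 23 inguinal clones, 20 exceeded all interscapular clones, and the exceptions, N13, M4 (753) and A5 (805), lay above BAT1 and BAT6. The level averaged 9.46 ± 0.23 in interscapular clones (log2, SD, n = 3) and 10.06 ± 0.27 in inguinal clones (SD, n = 23). The interval of the difference ran between -0.94 and -0.26, and the exact permutation test gave p = 0.00231 (two-sided, 2600 splits).

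In the fit over genes, the Ebf1 call was lost in 6 of 47 alternatives, and the Ebf2 and Ebf3 calls in 1 of 46 each. The difference was -0.55 without BAT1 (limma adjusted p = 0.102), -0.52 without BAT6 (0.156) and -0.73 without BAT8 (0.0284). By batch, it was -0.55 and -0.88 in sessions 1 and 2, and -0.29 and -0.78 on scanners 1 and 2, and it passed only on scanner 2 among these (limma adjusted p = 0.0318). With fluidics station as a block it was -0.49 and did not pass (limma adjusted p = 0.166). BAT6 had the lowest Ebf1 in the brightest probe set and in 1439789_at (213). In 1416301_a_at and 1416302_at BAT1 was the lowest (368 and 152, against 396 and 280 in BAT6). The BAT6 array had the most uneven actin signal of all arrays, a sign of RNA quality. Its 3' probes lay 1.15 log2 units above its 5' probes, against at most 0.99 in inguinal clones. For Gapdh this gap was 4.51 in BAT6 against at most 1.61 in inguinal clones, and the part of RNA quality in the Ebf1 difference was not tested. Of the other Ebf1 probe sets, 1416301_a_at (-0.75, adjusted p = 0.0198) and 1439789_at (-0.68, adjusted p = 0.0193) passed by limma and 1416302_at (-0.36, adjusted p = 0.197) did not. Both calls were lost with fluidics station as a block (limma adjusted p = 0.115 for 1416301_a_at and 0.101 for 1439789_at) and without BAT1 or BAT6. That of 1439789_at was also lost without BAT8 (0.0531), with chip lot as a block (0.0983) and with a mean of adipocyte genes as a covariate (0.0535). The fifth, 1457441_at, reached the array median in only 2 arrays and was not tested, and it had means of 5.64 in interscapular and 5.34 in inguinal clones.

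Ebf4, whose role in fat is little known, had intensities of 40.6 in BAT1, 99.2 in BAT6 and 68.7 in BAT8. In inguinal clones it was lowest in D12 (67.4), had a median of 104 and was highest in F4 (175). All 23 inguinal and 2 of the 3 interscapular clones lay above the array median, and BAT6 and BAT8 lay within the inguinal range. The level averaged 6.36 ± 0.51 in interscapular clones (log2, SD, n = 3) and 6.93 ± 0.38 in inguinal clones (SD, n = 23). The interval of the difference, unadjusted for the number of genes, ran between -1.05 and -0.09, and the exact permutation test of the single gene gave p = 0.0308 (two-sided, 2600 splits). With scan session as a block it passed narrowly in the fit over genes (limma adjusted p = 0.0496) and not in the fit over probe sets (0.0579). The Ebf4 difference was -0.30 without BAT1, -0.83 and -0.35 in sessions 1 and 2, and -0.49 and -0.63 on scanners 1 and 2.

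**Figure D3:**
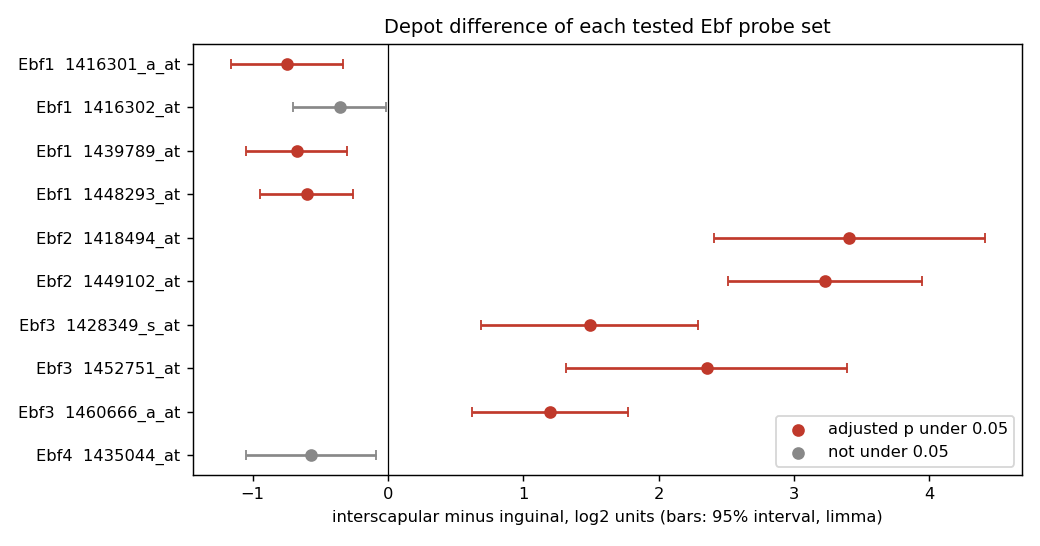
Interscapular minus inguinal difference in log2 units, with its 95% interval from limma, for the 10 Ebf probe sets that were tested (3 interscapular and 23 inguinal clones). All 5 tested Ebf2 and Ebf3 probe sets lie above 0 and all 5 of Ebf1 and Ebf4 below 0, and 1416302_at of Ebf1 and the Ebf4 probe set did not pass.

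A measure of differentiation was set beside these differences. The mean of 20 general adipocyte genes was 11.29 ± 0.57 in interscapular clones (log2, SD, n = 3) and 10.24 ± 0.89 in inguinal clones (SD, n = 23). With that mean as a covariate the differences were 3.34 for Ebf2, 2.50 for Ebf3 and -0.65 for Ebf1, all past the threshold (limma adjusted p = 0.000196, 0.00571 and 0.0287), and -0.45 for Ebf4 (0.339). Of the adipocyte genes, Klb, a co-receptor for Fgf21, passed as higher (2.86) and 19 of 20 did not pass, but 7 were higher and 0 lower at an unadjusted p under 0.05 and the list median was 0.98 log2 units. Of 15 preadipocyte genes, Thy1 (-2.38), Sfrp1 (-1.82) and S100a4 (-1.13) passed as lower and 12 did not pass. At an unadjusted p under 0.05, 6 preadipocyte genes were lower and 0 higher. The limma call of Thy1 held without each interscapular clone, and those of Sfrp1 and S100a4 did not. Among all genes tested, 4.55% passed as higher and 5.64% as lower by limma adjusted p. These shares do not apply to the unadjusted counts, for which no share over all genes is given. In RNA of whole cultures, fewer cells with a transcript and less transcript per cell cannot be told apart.

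Markers of other cell types, among them lineages in which Ebf factors are known, were listed as well. Of 12 measured B-lineage genes, 7 lay above the array median in no array and 2 were tested, with 0 called by limma and 0 at an unadjusted p under 0.05. Their summed intensity was 284 to 364 in interscapular and 229 to 399 in inguinal clones. Of 7 tested neural and olfactory genes, Tubb3, a neuronal tubulin, was lower (-0.86) and 3 were lower at an unadjusted p under 0.05, with sums of 781 to 894 in interscapular and 744 to 2315 in inguinal clones. Of 5 leukocyte genes, the macrophage glycoprotein Cd68 was higher (2.12) and 2 were higher at an unadjusted p under 0.05. Leukocyte sums were 2138 to 2856 in interscapular and 741 to 3530 in inguinal clones, with an inguinal median of 1292. The mean level of the 5 genes was 8.35 ± 0.09 in interscapular clones (log2, SD). In inguinal clones this mean was 7.61 ± 0.31 (log2, SD), with 7.75 in A3 and the highest, 8.18, in A5. The part of leukocyte signal in the Ebf differences was not tested. In the skeletal muscle (7 tested), mural (7) and endothelial (1) lists 0 genes passed by limma, and at an unadjusted p under 0.05 only 2 mural genes did, both lower. Of 5 osteogenic genes Tnfsf11, the RANK ligand, was higher (2.06), and 2 were higher at an unadjusted p under 0.05. None of the calls of Tubb3, Cd68 and Tnfsf11 held without each interscapular clone. Beside the adjusted calls, 4.55% of all genes tested passed as higher and 5.64% as lower by limma. No share over all genes is given for the unadjusted counts.

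Of 17 tested brown fat genes tied to Ebf2 in earlier work, 7 passed as higher in interscapular clones and 0 as lower by limma. The remaining 10 did not pass, and 4.55% of all genes tested passed as higher. At an unadjusted p under 0.05, 11 of the 17 were higher and 0 lower. No share over all genes is given for the unadjusted counts of these lists. The median difference of the 17 genes was 1.38 log2 units, beside -0.02 over all genes tested. Some of these genes, among them Fgf21, Pdk4, Hspb7 and Fbxo31, were known from work on these same lines, so the list is not independent evidence. The 7 were the hormone Fgf21 (4.88), the pyruvate dehydrogenase kinase Pdk4 (2.72), the small heat shock protein Hspb7 (2.41), the cytochrome oxidase subunit Cox7a1 (1.80), the mitochondrial thioesterase Acot2 (1.71), the F-box protein Fbxo31 (1.5) and the calcium-binding protein S100b (1.12). Cox7a1 and S100b lost their calls without single interscapular clones, and the remaining 5 held each time. The depots did not overlap for Fgf21, Pdk4, Hspb7, Acot2 or Fbxo31, which was so for 2.86% of all genes tested. In Pdk4, for example, BAT1 had 6420, BAT6 8170 and BAT8 9687, against 327 to 4635 in inguinal clones with a median of 1313.

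Several widely used brown fat genes of this list did not pass, while Cox7a1 did (1.80, limma adjusted p = 0.047). Ucp1, the uncoupling protein, had intensities of 113 in BAT1, 67.0 in BAT6 and 57.2 in BAT8, against 9.24 to 171 in inguinal clones with a median of 34.7, and differed by 0.64 (limma adjusted p = 0.395). The coactivator Ppargc1a differed by 0.84, Ppara by 0.66, Dio2, which makes active thyroid hormone, by 0.03 and the fatty acid elongase Elovl3 by 0.25. Cox8b differed by 1.98 (limma adjusted p = 0.0649), with 475 and 321 in BAT1 and BAT6 but 21.1 in BAT8. The lipid droplet protein Plin5 (1.38), the potassium channel Kcnk3 (1.44) and the fatty acid binding protein Fabp3 (-0.16) did not pass either. Cidea, Otop1, Dpf3 and Ckmt2 did not pass the filter on low values and were not tested. In the promoter windows of this list, 0 of 19 held the longer Ebf motif and 15.789% held its core, beside 13.671% of all windows.

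Few single partners and regulators of Ebf factors passed. Of 18 tested, 0 were higher and 2 lower by limma, while 4.55% of all genes tested passed as higher and 5.64% as lower. Their median difference was 0.12 log2 units over members that went both ways, and at an unadjusted p under 0.05 4 were higher and 3 lower. Of these 7, those that missed the adjusted threshold were Zfp423 (1.26, adjusted p = 0.0547), an Ebf-binding protein of preadipocytes, Pparg (1.62, adjusted p = 0.067), the master regulator of adipocyte formation, the corepressor Tle3 (0.56, adjusted p = 0.082), Prdm16 (0.40, adjusted p = 0.0968), a brown fat coregulator, and the histone methyltransferase Ehmt1 (-0.50, adjusted p = 0.107). Pparg read 2362 to 2728 in interscapular clones, above all inguinal clones (151 to 2227). The 2 lower genes were Smarca4 (-0.63, adjusted p = 0.0132), the ATPase of a chromatin remodelling complex, and the corepressor Ctbp2 (-0.81, adjusted p = 0.0407), and neither held without each interscapular clone. Zfp521, a relative of Zfp423 that binds Ebf1, differed by 0.18, and Nfia, a factor that acts with brown fat enhancers, by 0.06. Dpf3 and the B-cell factor Pax5 were not tested.

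**Figure D4:**
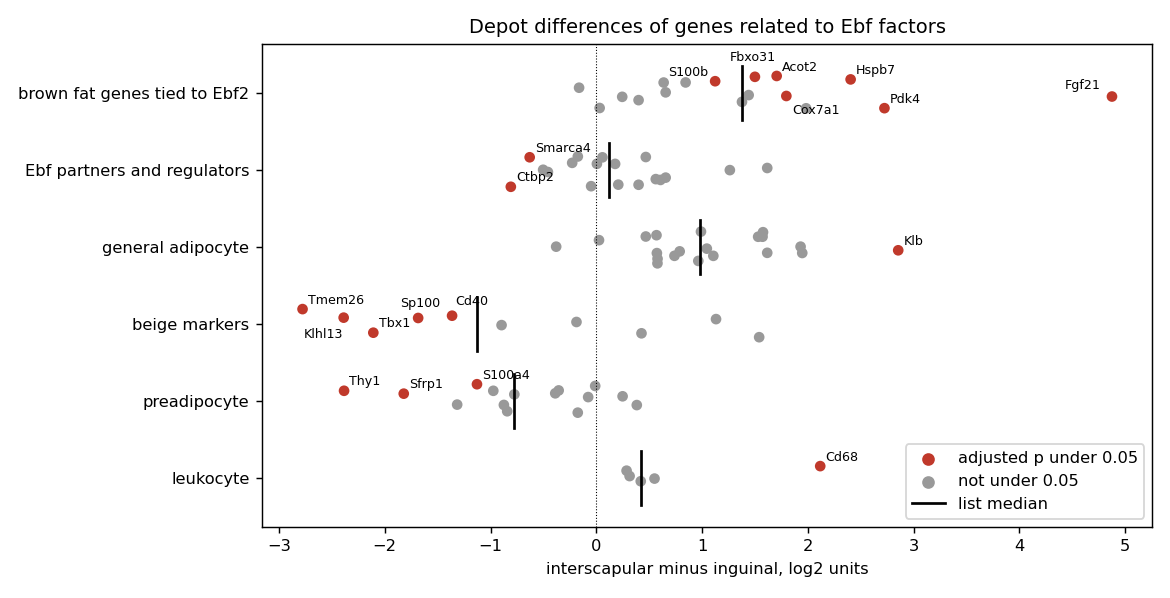
Interscapular minus inguinal difference in log2 units of each tested gene in 6 of the lists, with called genes named and a bar at the list median (3 interscapular and 23 inguinal clones). The brown fat genes tied to Ebf2 have a median of 1.38 with Fgf21 farthest right, and the beige markers a median of -1.13 with Tmem26 farthest left.

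Beige markers, also recalled from work on these lines and not independent evidence, were lower where they passed. Of 10 tested, 5 were lower in interscapular clones, 0 were higher (1 at an unadjusted p under 0.05) and 5 did not pass by limma, with a median of -1.13, while 5.64% of all genes tested passed as lower. They were Tmem26 (-2.78), Klhl13 (-2.39), the T-box factor Tbx1 (-2.11), Sp100 (-1.68) and Cd40 (-1.36), and the calls of Tbx1 and Cd40 did not hold without each interscapular clone.

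Among the inguinal clones alone, levels of the Ebf genes were set against each other, against Ucp1 and against the adipocyte mean, 14 relations in all. Of these 1, Ebf1 with Ucp1, had an unadjusted permutation p under 0.05 and 0 passed Benjamini-Hochberg adjustment. Ebf2 and Ucp1 had Pearson r = 0.03 and Spearman rho = 0.06 over all 23 clones (permutation p = 0.88 and adjusted p = 0.88 for r), and r = 0.25 and rho = 0.17 without A3 and A5 (permutation p = 0.276 and adjusted p = 0.386 for r), a choice made after seeing the data. Pairs with Ebf3 are counted among the 14 relations, but their values are not described here. A3 and A5 form a cluster of their own in Ebf3, and it lay below the array median in each of the other 21 inguinal clones. A5, with Ebf2 far above the other inguinal clones, had a Ucp1 intensity of 20.2, below its array median. Ucp1 exceeded the array median in only 9 of the 23 inguinal clones. The adipocyte mean of A5 was 9.64, below the inguinal average of 10.24, and the part of differentiation was not tested. A5 is 1 clone with 1 array, so no relation can be read from it.

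Ebf1 had the highest relation with Ucp1, with r = 0.46 (permutation p = 0.0295, adjusted p = 0.413) and rho = 0.47 (permutation p = 0.0263, adjusted p = 0.369) over 23 clones. It was 0.36 without N13 and M4, the clones farthest from the Ebf1 median (permutation p = 0.109), and 0.59 on scanner 1 but 0.19 on scanner 2. Ebf4 had r = -0.15 and rho = -0.07 with Ucp1 (permutation p = 0.48 for r, adjusted p = 0.694) and r = 0.37 and rho = 0.32 with Ebf1 (permutation p = 0.0831 for r, adjusted p = 0.458).

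The genes whose levels ran most opposite to Ebf2 over the 23 inguinal clones were Ndst4 (r = -0.80), Id3 (r = -0.79) and Hs3st1 (r = -0.75), and these were the only 3 of 12740 genes to pass (0.0235%, limma adjusted p = 0.0381 each). Ndst4 and Hs3st1 encode sulfotransferases of heparan sulfate, and Id3 an inhibitor of helix-loop-helix factors. Without A3 and A5 r was -0.70 for Ndst4, -0.76 for Id3 and -0.75 for Hs3st1, and 0 genes passed. Ebf2 exceeded the array median in only 6 of the 23 inguinal clones, so most of its order over them is near background signal. At an unadjusted p under 0.05 there were 516 positive and 626 negative relations. Among 12740 genes many reach an unadjusted p under 0.05 without any relation, so such counts, here and below, are not counts of related genes. Id3 had 2145 to 3576 in interscapular clones, and in inguinal clones it was lowest in A5 (2183), had a median of 3569 and was highest in A3 (5608). A5 had the highest inguinal Ebf2, and A3 was among many clones with Ebf2 at background. It did not differ past the threshold between depots (-0.39, limma adjusted p = 0.257). Ndst4 lay between 18.1 and 42.8 in interscapular and between 7.15 and 56.6 in inguinal clones, near background signal, so its order is uncertain.

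No gene ran with Ebf2 past the threshold by limma, and 540 did so at an unadjusted p under 0.05. The 6 most alike were Rnd2 (r = 0.75), Hspa4l (0.73), Krt80 (0.72), Crct1 (0.72), Tbc1d16 (0.71) and Morc4 (0.71). Without A5 and X9, the clones farthest from the Ebf2 median, r was 0.46 for Rnd2 and 0.74 for Crct1. Of the brown fat genes, Fgf21 had r = 0.70 with Ebf2 (limma adjusted p = 0.0711) and r = 0.62 without A3 and A5. Fgf21 and Ebf2 each exceeded the array median in only 6 of the 23 inguinal clones. Zfp423 had r = 0.48 and rho = 0.65, with r = 0.67 without A3 and A5 (limma adjusted p = 0.387 over all 23).

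**Figure D5:**
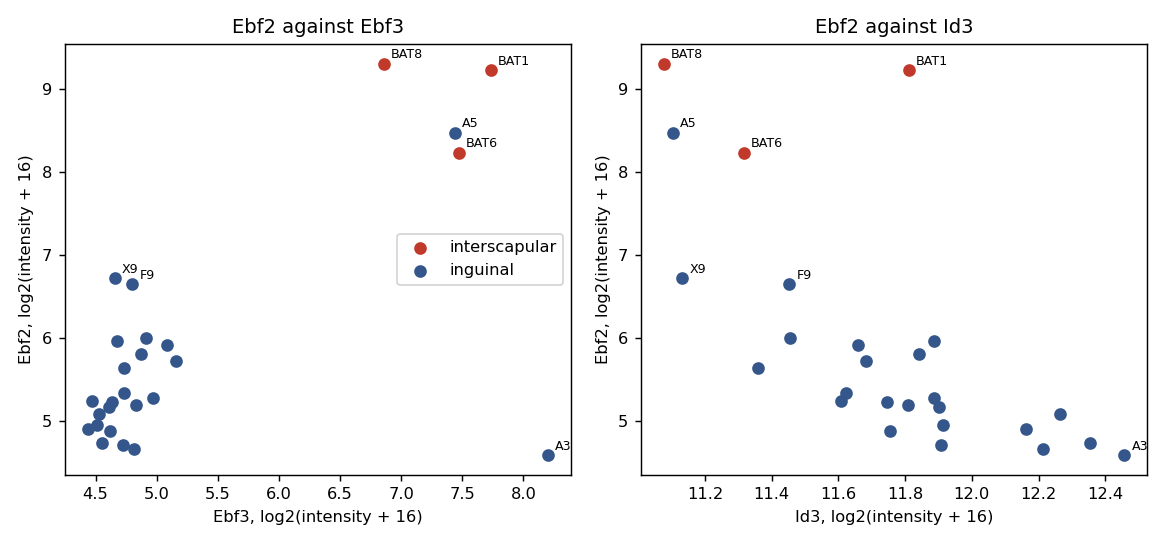
Level of Ebf2, log2(intensity + 16), against that of Ebf3 (left) and Id3 (right) in each clone, with interscapular clones (n = 3) in red and inguinal clones (n = 23) in blue. A5 lies among the interscapular clones in both panels, and A3 has high Ebf3 with Ebf2 at background. Id3 is shown as 1 of the genes most opposite to Ebf2 over the inguinal clones. Only 6 of the 23 inguinal clones exceed their array median in Ebf2, so most of their order is near background signal.

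Genes that ran with Ebf3 over the inguinal clones followed A3 and A5. Over all 23 clones 112 genes (0.879%) passed with a positive and 95 (0.746%) with a negative relation (limma), and without A3 and A5 the counts were 0 and 0, with 553 and 284 at an unadjusted p under 0.05. Ebf3 lay below the array median in the 21 clones left, so these last counts rest on background signal. The most alike was the noncoding gene Abhd11os, followed by Plp2, Serpinb6b, Naalad2, Ifitm6 and Cxcl9, and without A3 and A5 r was 0.06 for Abhd11os and 0.07 for Plp2. The most opposite were Gata6, Casp1, Grb10, Hoxc8, G530011O06Rik and Tm9sf2, with r = -0.18 for Gata6 and -0.22 for Casp1 without these clones. Plp2, which encodes a membrane proteolipid, had 1247 to 2597 in interscapular clones, 1176 in A3 and 2787 in A5, against 27.0 to 222 in the other inguinal clones. Like Ebf3, it was thus high in the interscapular clones, A3 and A5 alone, and it differed by 4.24 between depots (limma adjusted p = 0.000862).

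For Ebf1 and Ebf4 no gene passed in either direction by limma. At an unadjusted p under 0.05, 707 genes ran with Ebf1 and 272 against it, and 801 ran with Ebf4 and 452 against it. Most alike to Ebf1 were Vcl, the focal adhesion protein vinculin (r = 0.73), Pyroxd2, Kmt2e, Mical3, Naca and Ddx17, and most opposite were Zfp593 (-0.75), Noc2l (-0.70), Rrp7a (-0.70), Sap30bp, Atp6ap1 and Gm9706. Most alike to Ebf4 were Rab11fip3 (r = 0.78), Kalrn, Gpc6, Afap1, Apbb2 and Zfp467. Most opposite to Ebf4 were Tm2d3 (-0.80), Tufm (-0.75), Mrpl12 (-0.74), Lag3, Mrpl17 and Mrps30, of which Tufm, Mrpl12, Mrpl17 and Mrps30 encode proteins of mitochondrial translation.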

How the data were processed

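Total RNA of 26 clones was hybridised as biotinylated cRNA to Affymetrix mouse 430 arrays of the second version, 1 per clone, per the labels' protocols. The authors deposited a table with 1 linear intensity for each probe set on each array. Their probe summary and array scaling were not given in the sources used here. Array medians were 40.3 to 45.7 and array means 412 to 506. The platform annotation, which can be old, gave 1 gene symbol to 34945 of 45101 probe sets, several to 932 and none to 9160, and 64 were controls. A RefSeq gene was matched for 34741 of those with 1 symbol. Values were used as log2(intensity + 16). A gene was represented by its probe set with the highest mean, and 12741 genes above the array median in at least 3 arrays were tested. Of the 12 Ebf probe sets, 10 passed that filter.

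Depots were taken from the labels and compared with limma 3.58.1 (R 4.3.3, lmFit and eBayes, two-sided, Benjamini-Hochberg over all genes or all probe sets, threshold 0.05) and by exact permutation of single genes. Over inguinal clones, each gene was regressed on each Ebf level with limma, and correlations were tested with 100000 permutations. Members and gene lists were chosen with earlier results of these data known. Named genes were the Ebf genes, Ucp1, list members and the 6 genes most alike and 6 most opposite to each Ebf gene by Pearson r. Genes such as Hoxc10 and Hoxc8, shown for A3 and A5, were added after their values were seen. Batches were the scan session, scanner, chip lot and fluidics station in each array's experiment file, numbered here. Scan sessions were built by joining nearby dates. Session 1 held 2 interscapular (BAT1, BAT8) and 17 inguinal arrays, and session 2 held 1 (BAT6) and 3. Scanner 1 read 1 (BAT8) and 12, and scanner 2 read 2 (BAT1, BAT6) and 11. Fluidics station 1 held BAT8 with 4 inguinal arrays, and station 7 held BAT1 and BAT6 with 2. Chip lot 2 held BAT1 and BAT8 with 4 inguinal arrays, and lot 4 held BAT6 with 3. The other stations and lots held inguinal arrays only.

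On simulated data over 12741 genes, limma called 76% of genes planted with a depot difference of 1 log2 unit and 99% of those planted with 2, and 14 unchanged genes. For slopes over inguinal clones it called 89% at 0.5 and 99% at 1, and 8 unchanged genes. Alternatives covered scaling, pseudocount, filter, probe set rule, batches, array weights, differentiation and single clones left out. Leaving out A3 and A5 was chosen after seeing the data. Coordinates are those of the RefSeq promoter table, since the files give no build. The number of arrays limits the precision. Figures were drawn with matplotlib 3.10.9.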

Additional observations from a re-analysis of the deposited data

How the results depend on the processing

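Over 46 or 47 alternatives the difference (interscapular minus inguinal) kept its direction for each Ebf gene, between 2.45 and 4.08 for Ebf2, 1.35 and 3.35 for Ebf3, -0.88 and -0.29 for Ebf1 and -0.83 and -0.30 for Ebf4, with limma adjusted p between 7.18e-08 and 0.105, 1.40e-12 and 0.281, 0.00764 and 0.765, and 0.0496 and 0.665. Calls were lost within scanner 1 for Ebf2 (3.59), Ebf3 (1.92) and Ebf1 (-0.29). For Ebf1 they were also lost with fluidics station as a block (-0.49) and within session 1 (-0.55) and session 2 (-0.88). The Ebf1 call was lost without BAT1 (-0.55) or BAT6 (-0.52) as well. Fewer arrays enter each within-batch fit. Ebf4 passed with scan session as a block (-0.69, adjusted p = 0.0496, but 0.0579 over probe sets) and by the exact test of the single gene (-0.57). Leaving out single clones gave 3.21 to 3.75 for Ebf2, 2.16 to 2.60 for Ebf3, -0.73 to -0.52 for Ebf1 and -0.81 to -0.30 for Ebf4. Under a filter of 13 arrays Ebf2 and Ebf3 were not tested. No paired analysis was possible because the labels pair no clones across depots.

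Genes called higher were 347 with fluidics station as a block, 240 within session 1, 76 within session 2, 54 within scanner 1, 308 within scanner 2 and 328 with the adipocyte mean as covariate, and 202 to 663 without single clones. Genes called lower were 275, 310, 132, 47, 336 and 379 in that order, and 238 to 887 without single clones. Among single clones left out, BAT6 gave the lowest counts. Of the brown fat genes tied to Ebf2, 3 passed as higher within scanner 1, and 5 to 8 without single clones. Of the Ebf partners, 1 passed as higher with a pseudocount of 64, chip lot as a block or the adipocyte covariate, 2 with session as a block or within session 1, and 0 to 1 without single clones. As lower, 1 partner passed with no filter, fluidics station as a block or the adipocyte covariate, 0 within each session or scanner, and 0 to 3 without single clones.

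Counts of related genes moved most. With the adipocyte covariate 54 genes ran with Ebf1, 4 against it and 4 with Ebf2, and within scanner 2 2 ran against Ebf1 and 1 with Ebf4. With Ebf2 there were 7 under quantile normalization, 14 with a pseudocount of 64, 5 within scanner 1, 2 within session 1 and 1 without A5 and X9. Against Ebf2 there were 0 with the mean of probe sets, within scanner 2 or without A3 and A5, and 1 with scanner as a block or without A5 and X9. With Ebf3 there were 58 at a pseudocount of 1, 169 at 64, 13 within each scanner, 19 within session 1 and 0 without A3 and A5, and against it 14 within scanner 1, 17 within scanner 2, 27 within session 1 and 0 without A3 and A5.

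Of 14 correlations, 10 changed sign under some alternative, none of them past the adjusted threshold. Ebf1 with Ebf2 was 0.0403 under quantile normalization, 0.0006 at a pseudocount of 1, 0.24 within scanner 2 and 0.30 without A3 and A5, and Ebf1 with Ebf3 0.28 without A3 and A5. Ebf2 with Ebf3 was -0.30 within scanner 2 and -0.18 without A5 and X9, Ebf2 with Ebf4 0.25 and 0.13 there, and Ebf3 with Ebf4 0.34 without A3 and A5. Ebf2 with Ucp1 was -0.0026 at a pseudocount of 64, -0.0613 with the mean of probe sets, -0.0238 with the adipocyte covariate, -0.0436 within scanner 1 and -0.0143 within session 1, and Ebf4 with Ucp1 0.0337 with that covariate. With the adipocyte mean, Ebf1 had -0.42 and Ebf2 -0.0468 within scanner 2, Ebf2 -0.0478 with the mean of probe sets and Ebf4 0.0359 without F4 and I2. Values of Ebf3 without A3 and A5 rest on background signal. The cause of these changes was not tested.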
